A study of Caenorhabditis elegans with 16 samples.

Results

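Newly hatched Caenorhabditis elegans larvae that find no food stop development in the first larval stage, a state called L1 arrest. The results below follow arrested larvae of the cdk12-as strain through 4 further hours without food, in the 2 libraries sampled after those hours and the 2 libraries sampled at their start. These are 4 of the 16 libraries in the series, chosen by strain and condition as the labels give them and not by any measured value. CDK-12 is a kinase that phosphorylates the C-terminal domain (CTD) of RNA polymerase II, and in cdk12-as it is an analog-sensitive form that a bulky compound can block. That compound, 3MB-PP1, was absent from all 4 libraries.

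In every group, embryos were freed by bleaching and left to hatch in S-Medium that held no food, for 12 h or longer at 20 °C. The start libraries (labelled starved) come from that culture, and the starved libraries come from the same kind of culture kept for 4 h more with DMSO and no food. The labels give no DMSO for the start, so the passing of time and the addition of DMSO cannot be told apart. The nearest comparison is the same pair of conditions in the N2 wild type, again with 2 libraries each, which shares no library with cdk12-as. The remaining groups are fed larvae of both strains, without or with the inhibitor at 1 µM. Larvae were whole animals in bulk, so fewer cells of a type and less RNA per cell cannot be told apart. Nothing in the labels says that replicates came from separate cultures, and the p-values therefore cover only the spread among the sequenced samples, part or all of which may be technical.

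In L1 arrest the blast cells of the epidermis, gonad and other tissues stay undivided, while insulin-like signalling through the FOXO factor DAF-16 and nutrient sensing keep the larva in a stress-resistant state. Fat and other stores supply energy until food appears. The larval cuticle, made of collagens and cuticlins secreted by the epidermis, is built around hatching and rebuilt at each moult.

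Ribosome-depleted RNA was sequenced and counted per gene. Counts over genes summed to 25872927 and 42118911 in start replicates 1 and 2, and to 33494796 and 22383445 in starved replicates 1 and 2. The ribosomal RNA gene rrn-2.1 held 42.4% and 29% of these at the start and 45.1% and 31% after further starvation. Starved replicate 2 stood apart in the reads assigned to no feature, which were 57.1% of its table against 29.4 to 41.3% in the other 3 libraries, and in ambiguous reads, at 10.7% against 4.36 to 6.73%. The part of these differences in the results was not tested. Of 28 sperm markers, which a larva should lack, 8 were at 0 in all 4 libraries. The 4 with enough counts to be tested summed to 4.50 to 6.08 CPM (counts scaled to a common library size). The 3 tested of 5 yolk and adult markers summed to 0.86 to 1.36 CPM. Markers of intestine, epidermis, muscle, pharynx, neurons and germline were all present.

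Over 4 h without food 434 genes rose and 488 fell in cdk12-as. These were 2.74% and 3.08% of the 15845 genes tested (edgeR, Benjamini-Hochberg adjusted p under 0.05), 5.82% in all, and they are what rose and fell mean below. Risers had a median log2 fold change of 0.76, and 155 of them more than doubled. Fallers had a median of -0.95, and 235 of them lost more than a factor of 2. Genes for cytochrome P450 enzymes, fat synthesis, nuclear receptors and neuropeptides were among those that rose. Genes of the cuticle, of histones, of tRNA charging and of cell division were among those that fell. The number called rests on 3 of the 4 libraries. It was 78 rises and 38 falls without start replicate 1, 206 and 116 without starved replicate 1, and 124 and 55 without starved replicate 2, while 70 rises and 25 falls were called whichever of the 4 libraries was left out. Rises made up 47.1% of the calls, but 19.1% with total count scaling (54 rises and 229 falls, the median of all genes moving by -0.13) and 36.7% with total counts that leave out rRNA genes (341 and 589).

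**Figure D1:**
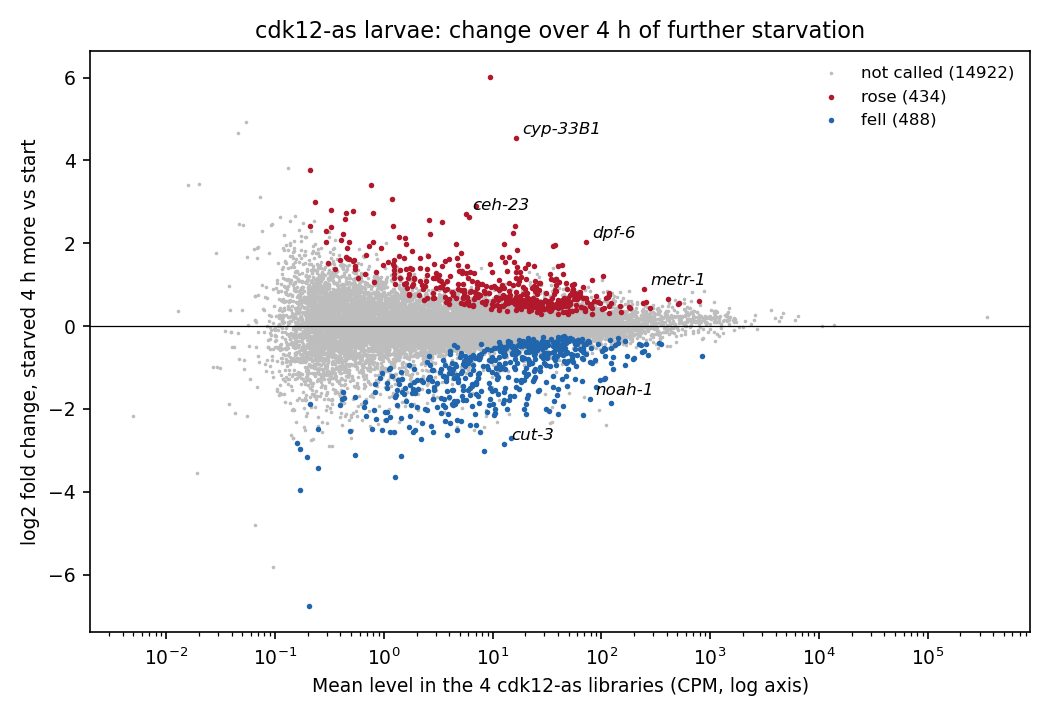
Mean level over the 4 cdk12-as libraries (CPM, log axis) against the log2 fold change after 4 h of further starvation, 1 point per gene. The 434 genes that rose are red, the 488 that fell are blue, and both kinds lie among weakly and strongly expressed genes, though not at the ends of the range. A tested gene at 0 in all 4 libraries has no place on the log axis and is not drawn.

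The largest rise in a gene with a symbol of letters and a number and a mean level of 5 CPM or more was in cyp-33B1, a cytochrome P450 gene on chromosome V (9041308 to 9043653, plus strand, ce10). It had 1.19 and 1.45 CPM at the start and 34.9 and 27.5 CPM after further starvation, which is 4.54 ± 0.22 as a log2 fold change (with its SE; adjusted p = 1.1e-06). Both starved libraries lay far above both start libraries, an order found in 23.3% of all tested genes, while the reverse order was found in 27% of them. The 12 largest rises and 12 largest falls named here had to show such an order, so it adds no support to their calls. For the other called genes below, the order comes from the same counts as the call, so it adds no support there either. In wild type the change of cyp-33B1 was 3.42, and in fed cdk12-as larvae its mean was 2.51 CPM. The gene F44G3.2, which the current annotation names argk-1 (an arginine kinase), has no such symbol in the deposited table, rose more and was chosen after its values were seen. It went from 0.26 and 0.30 CPM to 20.5 and 16.5 CPM, or by 6.01 ± 0.35 on the log2 scale (adjusted p = 5.89e-06). Its groups did not overlap, and in wild type it rose by 4.67 on the log2 scale.

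A homeobox factor gene, ceh-23, had 1.64 and 1.45 CPM at the start and 8.83 and 11.1 CPM later (2.70 ± 0.25 as a log2 fold change, adjusted p = 0.000172). The dipeptidyl peptidase family gene dpf-6 had 24.2 and 32.5 CPM, then 110 and 122 CPM (2.03 ± 0.18, adjusted p = 0.000112). The potassium channel gene twk-25 had 4.46 and 5.64 CPM, then 21 and 19.5 CPM (1.99 ± 0.18, adjusted p = 0.000161). In all 3 genes both starved libraries were above both start libraries, as the naming rule required. The dihydropyrimidinase gene dhp-1, whose product breaks down pyrimidines, had 15.9 and 14.8 CPM, then 60.7 and 59.3 CPM (1.97 ± 0.17, adjusted p = 0.000105). Its wild-type change was 2.27, and fed cdk12-as larvae averaged 45.7 CPM.

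The other named rises were cyp-35B1 (log2 fold change 1.76), the nuclear receptor gene nhr-202 (1.67), the acid phosphatase gene pho-9 (1.66), nhr-6 (1.51), tag-260 (1.46), the SP1-family factor gene sptf-2 (1.46) and cth-1 (1.41). The cystathionine gamma-lyase gene cth-1, which makes cysteine from cystathionine, had 10.0 and 11.8 CPM at the start, then 28.2 and 29.8 CPM. All 12 of these largest rises were also rises in wild type. Leaving out any of the 4 libraries kept 11 of the 12 calls, and pho-9 lost its call without starved replicate 2 (highest adjusted p = 0.0687). With library sizes set by total counts, 9 of the 12 remained calls.

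The genes beside cth-1 on chromosome V also rose. In ce10, cth-1 lies at 16100678 to 16102631 on the plus strand, with the chemoreceptor gene str-7 on the minus strand 1163 bases before it and F44G3.2 on the plus strand 1283 bases after it. Next to str-7, on the plus strand and 3431 bases before cth-1, lies F22B8.7. All 4 of these genes rose in cdk12-as, F22B8.7 by 1.48 ± 0.12 and str-7 by 3.06 ± 0.43 on the log2 scale, and all 4 rose in wild type by 1.33, 3.28, 1.30 and 4.67 in the order F22B8.7, str-7, cth-1 and F44G3.2. Within 10000 bases of cth-1 the only other counted gene with a position was F22B8.3, which was too low to test. This stretch was chosen after its values were seen, and the counter's use of strand for the gene counts is not given in the sources used here.

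**Figure D2:**
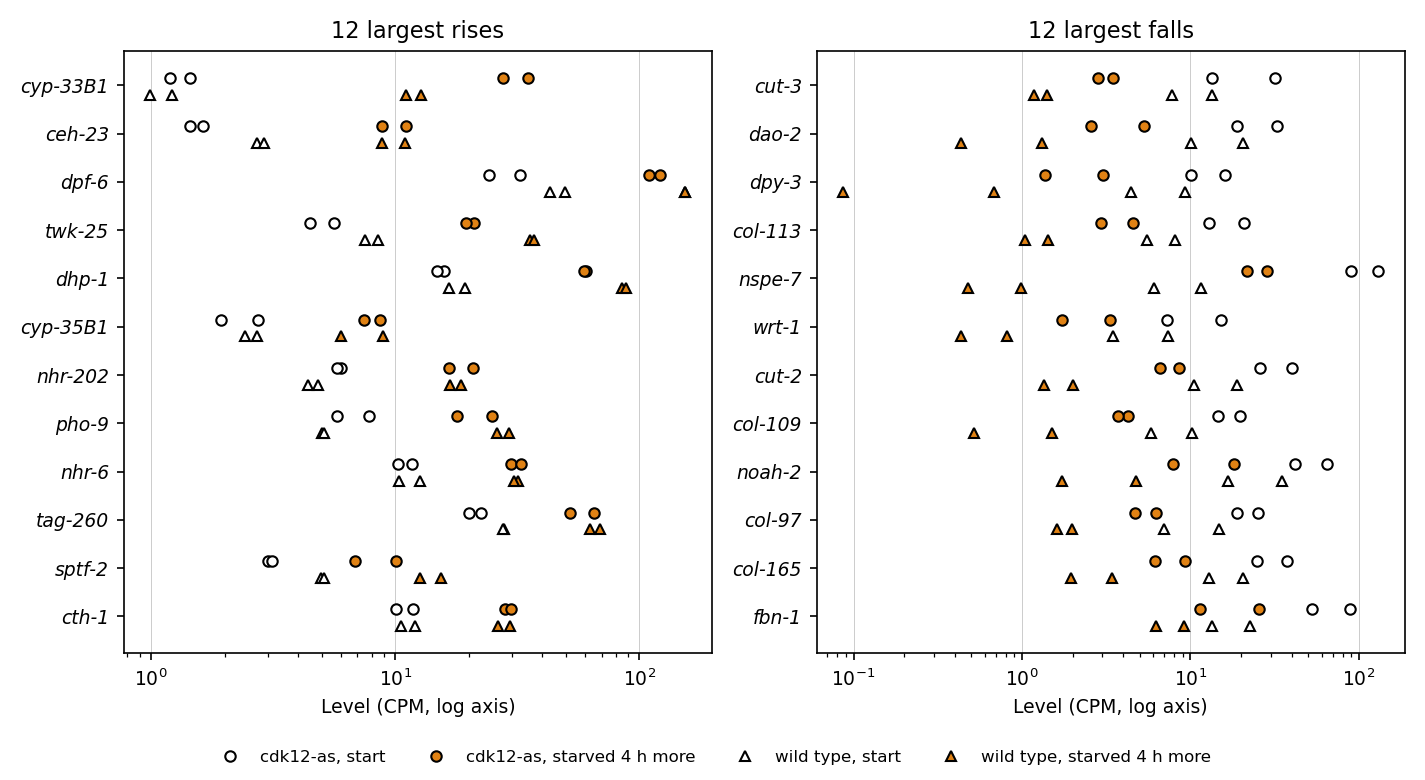
Level of the 12 largest rises (left) and 12 largest falls (right) under the naming rule in each library (CPM, log axis), with circles for cdk12-as and triangles for wild type, open at the start and filled after 4 h more. The filled circles lie to one side of the open circles in each gene because the naming rule required it.

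Under the same limits of level, symbol and order of libraries, cuticle collagen, cuticlin and matrix genes were among the 12 largest falls. Some genes below that level, such as C14A4.9 (-3.65) and grl-15 (-3.14), or without such a symbol had larger called falls. The cuticlin gene cut-3 had 31.8 and 13.5 CPM at the start and 2.82 and 3.45 CPM after further starvation (log2 fold change -2.85 ± 0.50, adjusted p = 0.00803). The gene dao-2 had 32.9 and 18.9 CPM, then 5.31 and 2.57 CPM (-2.70 ± 0.69, adjusted p = 0.042). The cuticle collagen gene dpy-3, needed for normal body shape, had 16.14 and 10.1 CPM, then 3.04 and 1.36 CPM (-2.55 ± 0.67, adjusted p = 0.0449). In all 3, start replicate 1 was the highest library, and the start and starved groups did not overlap, as the rule required.

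The apical matrix gene noah-2 had 65.1 and 42 CPM, then 18 and 7.86 CPM (-2.04 ± 0.46). The fibrillin-related gene fbn-1, which holds the epidermis to its matrix, had 88 and 52.7 CPM, then 25.5 and 11.4 CPM (-1.93 ± 0.37, adjusted p = 0.0124). By the same rule, each of the 2 starved libraries was below both start libraries in these genes. The other named falls were col-113 (log2 fold change -2.15), nspe-7 (-2.14), wrt-1 (-2.13), cut-2 (-2.13), col-109 (-2.09), col-97 (-2.01) and col-165 (-2.0). In wild type 11 of the 12 also fell, and fbn-1 had a change of -1.21 (adjusted p = 0.086). None of the 12 calls held without start replicate 1 (adjusted p 0.0574 to 0.264) or without starved replicate 2 (0.0617 to 0.277), and 4 held without starved replicate 1.

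Among 114 tested cuticle collagen genes, 16 fell (14%) and 1 rose (0.88%), with a median log2 fold change of -0.28 beside -0.012 over all tested genes. Beyond those above, col-12 had 3.16 and 3.04 CPM, then 1.14 and 1.00 CPM (-1.52 ± 0.22), and col-65 had 11.1 and 9.65 CPM, then 4.11 and 4.57 CPM (-1.26 ± 0.18). Both fell whichever of the 4 libraries was left out. The single rise was col-153 (0.96). In wild type 21 collagen genes fell and the median was -0.31. The summed level of the 114 tested collagen genes (of 150) was 3072 and 4174 CPM at the start and 3020 and 3595 CPM later. This sum overlapped between the groups. The count of falls was 2 without start replicate 1, 6 without starved replicate 1 and 2 without starved replicate 2, and near-identical collagens may share reads.

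Of 74 tested astacin, cuticlin and moulting genes 17 fell and 2 rose, with a median of -0.26 (-0.47 for replicate 1 and -0.18 for replicate 2). The apical matrix gene noah-1 had 150 and 91.1 CPM, then 43.8 and 27.1 CPM (-1.76 ± 0.29, adjusted p = 0.00626). The astacin metalloproteases nas-38 (-1.56), nas-14 (-1.55), nas-15 (-1.48) and nas-12 (-1.40) fell, as did the cuticlin-like genes cutl-2 (-2.33), cutl-8 (-1.91) and cutl-9 (-1.88). The rises were mlt-7 (0.46), a peroxidase that crosslinks cuticle, and peb-1 (0.62), a DNA-binding factor. The count of falls was 0 without start replicate 1, 6 without starved replicate 1 and 0 without starved replicate 2.

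Hedgehog-related and patched-related genes, which encode secreted proteins of the epidermis and membrane proteins, gave 12 falls and 2 rises among 62 tested, with a median of -0.43 (-0.63 for replicate 1 and -0.19 for replicate 2). The secreted-protein gene wrt-6 had 3.09 and 2.42 CPM, then 1.01 and 0.88 CPM (-1.52 ± 0.23). The gene grl-16 had 11.6 and 7.49 CPM, then 3.29 and 2.65 CPM (-1.67 ± 0.29), and ptr-12 rose from 23.4 and 29.4 CPM to 42.6 and 54 CPM (0.87 ± 0.14). The groups did not overlap in any of these 3. Falls numbered 1 without start replicate 1, 5 without starved replicate 1 and 1 without starved replicate 2. The 8 tested of 10 epidermis markers summed to 1885 and 2039 CPM at the start and 1677 and 2201 CPM later. The later sum was lower in replicate 1 and higher in replicate 2. Of the 8 tested markers 4 were positive and 4 negative, wrt-2 (-2.27) was the only one called, and their part in these falls was not tested.

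Core histone genes gave the highest share of falls of the groups with 20 or more tested members, with 12 falls and no rise among 32 tested of 68. The median log2 fold change was -0.60 and 26 of the 32 were negative. Between libraries of the same replicate number the median difference was -0.99 for replicate 1 and -0.22 for replicate 2. Core histones package DNA, and most of their messages are made while DNA is copied and lack a poly(A) tail, so they stay in ribosome-depleted RNA. The gene his-32 had 113.4 and 75.1 CPM at the start, then 35.4 and 40.2 CPM (-1.32 ± 0.18, adjusted p = 0.0019). The gene his-16 had 39.8 and 29.3 CPM, then 15.6 and 13.9 CPM (-1.22 ± 0.15), and his-61 had 36.4 and 30.0 CPM, then 15.5 and 16.8 CPM (-1.04 ± 0.13). In these 3, called whichever library was left out, both starved libraries lay below both start libraries.

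In wild type 1 core histone gene fell and the median was 0.05. His-32 had 80.5 and 70.4 CPM in the wild-type start libraries and 71.1 and 86.7 CPM in the starved libraries. No core histone gene passed the test of the difference between strains, with an adjusted p of 0.079 for his-32. Histone falls numbered 3 without start replicate 1, 5 without starved replicate 1, 6 without starved replicate 2 and 7 with total count scaling, and many histone genes are near-identical copies whose reads the counting could divide.

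Replication and mitosis genes gave 7 falls (8.24%, beside 3.08% of all tested genes) and no rise among 85 tested, with a median of -0.13. They were the cyclin B genes cyb-3 and cyb-1, the kinase gene cdk-1, the anaphase activator fzy-1, the checkpoint gene bub-1, the helicase subunit mcm-7 and the condensin subunit hcp-6. Cyb-3 had 21.3 and 18.8 CPM, then 12.7 and 11.7 CPM (-0.71 ± 0.13, adjusted p = 0.00868). Fzy-1 had 12.8 and 11.7 CPM, then 8.70 and 8.34 CPM (-0.52 ± 0.10), and bub-1 had 45.6 and 39.5 CPM, then 32.6 and 31.8 CPM (-0.40 ± 0.09). The starved libraries were below the start libraries in all 3. Wild type had 1 fall and 1 rise in this group. The count of falls was 0 without start replicate 1, 2 without starved replicate 1, 0 without starved replicate 2 and 0 with total count scaling. Germline and P granule markers summed to 421 and 444 CPM at the start and 405 and 461 CPM later, with mes-4 (-0.53) the only call among 25 tested. Of these 25 markers 19 were negative and the median was -0.27, and their part in the falls of this group was not tested.

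Aminoacyl-tRNA synthetases, which load tRNAs with amino acids, gave 8 falls and no rise among 33 tested, with a median of -0.12. The valyl enzyme gene vars-2 had 306 and 274 CPM, then 183 and 192 CPM (-0.63 ± 0.11, adjusted p = 0.00903). The seryl gene sars-1 had 360 and 308 CPM, then 191 and 219 CPM (-0.70 ± 0.13), and the prolyl gene pars-1 had 150 and 141 CPM, then 93.6 and 107 CPM (-0.54 ± 0.10). Start and starved groups did not overlap in these 3. Wild type had no call in this group, where vars-2 had 161 and 143 CPM at the start and 169 and 171 CPM later, and no synthetase passed the test of the difference between strains (adjusted p = 0.13 for vars-2). The falls numbered 0 without start replicate 1, 0 without starved replicate 1, 1 without starved replicate 2 and 0 with total count scaling.

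**Figure D3:**
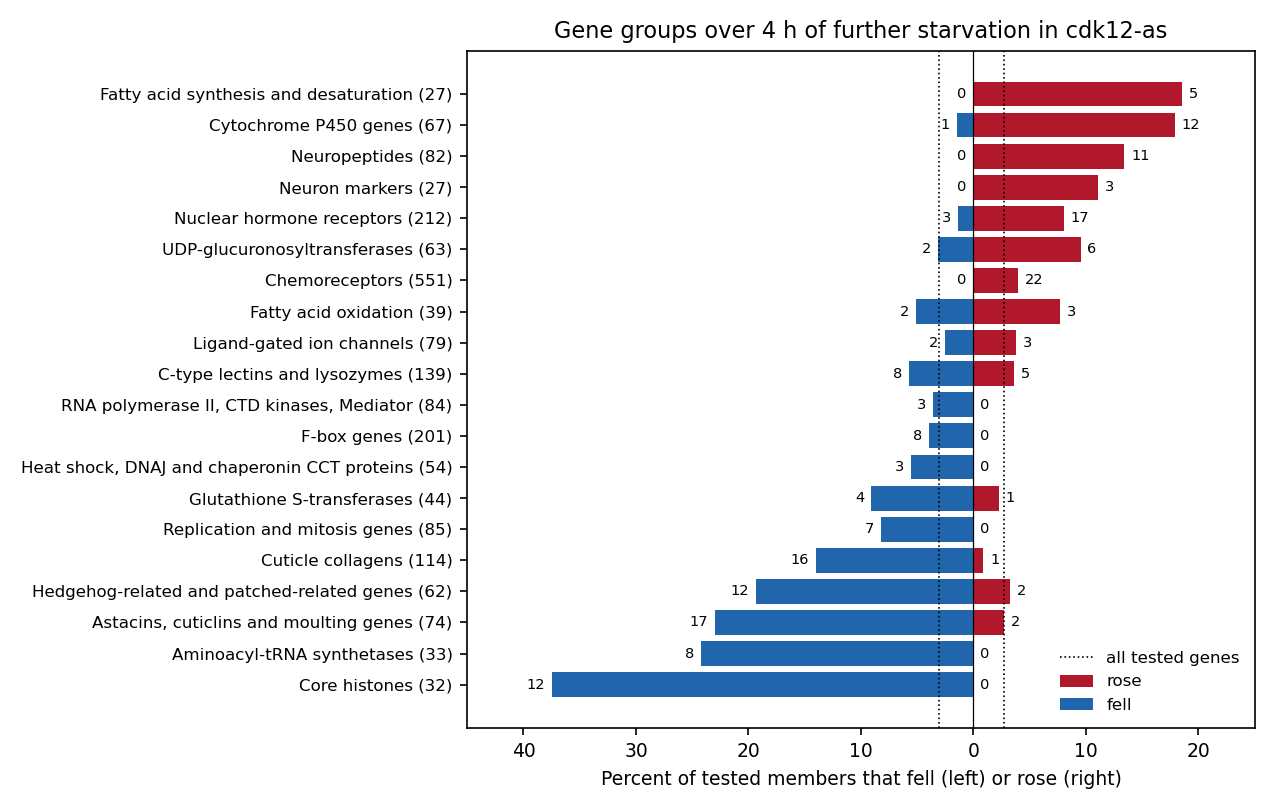
Percent of tested members that fell (left, blue) or rose (right, red) in cdk12-as, for the gene groups with at least 20 tested members and 3 calls, with the number called at each bar and the number tested in brackets. Dotted lines mark the shares over all tested genes, 3.08% and 2.74%, and core histones reach 37.5%.

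Other translation genes gave fewer calls. No cytosolic ribosomal protein gene passed the test, although all 79 tested had a positive log2 fold change, with a median of 0.23 and a highest of 0.58. At an unadjusted p under 0.05 edgeR gave 4 of them, and DESeq2 called 0. The median was 0.10 with total count scaling and 0.04 without start replicate 1, and it was 0.10 in wild type. Their summed level was 50491 and 68131 CPM at the start and 63123 and 75451 CPM later, so the groups overlapped. No mitochondrial ribosomal protein gene of 70 was called (median -0.10, 59 negative, 6 lower at an unadjusted p under 0.05, DESeq2 calling 1 fall).

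Cytochrome P450 enzymes oxidise foreign compounds, steroids and fatty acids. Of 67 tested cytochrome P450 genes 12 rose and 1 fell, with a median of 0.24 (0.36 for replicate 1 and 0.12 for replicate 2), and wild type had 6 rises and 4 falls. After cyp-33B1, cyp-35B1 had 1.93 and 2.74 CPM, then 8.64 and 7.42 CPM (1.76 ± 0.24, adjusted p = 0.00193). Cyp-25A2 had 10.7 and 9.51 CPM, then 23.3 and 21.6 CPM (1.15 ± 0.16), while in wild type it had 43.1 and 44.1 CPM, then 45.8 and 48 CPM. Neither start library reached a starved library in these genes in cdk12-as. The difference between strains in cyp-25A2 did not pass (adjusted p = 0.15), and reads of the near-identical cyp-25A genes may be divided among them. The fall was cyp-14A5 (-0.98). Rises numbered 4 without start replicate 1, 5 without starved replicate 1, 4 without starved replicate 2 and 4 with total count scaling.

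UDP-glucuronosyltransferase genes, which attach sugar to such compounds, gave 6 rises, led by ugt-8 (1.37), and 2 falls, ugt-29 (-0.94) and ugt-26 (-0.64), among 63 tested. The rises were 9.52% of them, beside 2.74% of all tested genes, and the falls 3.17%, near the 3.08% of all tested genes. The median of this group, 0.10, turned to -0.03 with total count scaling. Rises numbered 0 without start replicate 1, 3 without start replicate 2 and 1 without either starved library. Glutathione S-transferases, which attach glutathione, gave 4 falls (9.09%) and 1 rise (2.27%) among 44 tested, with 27 negative and a median of -0.05. The oxidative stress reporter gene gst-4 had 86.7 and 77.2 CPM, then 37.7 and 29.4 CPM (-1.29 ± 0.16, adjusted p = 0.00134), with both starved libraries below both start libraries. It fell by 1.06 on the log2 scale in wild type, where 11 members of the group fell. Gst-13 (-0.89) and gst-4 were called whichever library was left out, and the count of falls was 2 without start replicate 1 and 2 without starved replicate 2.

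Nuclear hormone receptor genes, a family of ligand-regulated transcription factors that is very large in this worm, gave 17 rises and 3 falls among 212 tested. The rises were 8.02% of them and the falls 1.42%, beside 2.74% and 3.08% of all tested genes. The receptor gene nhr-6, of the NR4A type, had 11.7 and 10.2 CPM, then 29.8 and 32.7 CPM (1.51 ± 0.15, adjusted p = 0.000246). Nhr-202 had 5.99 and 5.76 CPM, then 20.8 and 16.6 CPM (1.67 ± 0.13, adjusted p = 7.45e-05), and nhr-138 had 33.5 and 34.1 CPM, then 52.5 and 52.8 CPM (0.64 ± 0.07, adjusted p = 0.000865). Replicates of a group were close together in all 3, and the groups did not overlap. In wild type 21 members rose and 3 fell. The falls in cdk12-as were nhr-31 (-0.55), nhr-11 (-0.45) and nhr-62 (-0.44). Of the rises 5 were called whichever library was left out, the count being 5 without start replicate 1, 10 without starved replicate 1, 6 without starved replicate 2 and 2 with total count scaling, where the median of 0.10 became -0.03.

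Fat synthesis genes gave 5 rises and no fall among 27 tested, with a median of 0.26. The diacylglycerol acyltransferase gene dgat-2, which makes storage fat, had 19.5 and 18.4 CPM, then 32.2 and 37.6 CPM (0.88 ± 0.10, adjusted p = 0.00099). The elongase gene elo-6 had 88.3 and 109 CPM, then 151 and 141 CPM (0.56 ± 0.10), and the desaturase gene fat-3 had 136 and 164 CPM, then 218 and 195 CPM (0.46 ± 0.10). Both starved libraries were above both start libraries in these 3. The desaturase gene fat-2 (0.66) and the receptor gene nhr-80 (0.67), which controls desaturases, made up the rest, and wild type had 1 rise, dgat-2. Rises numbered 1 without start replicate 1, 1 without starved replicate 1, 2 without starved replicate 2 and 0 with total count scaling.

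Fatty acid oxidation genes gave 3 rises and 2 falls among 39 tested, against 9 rises and 2 falls in wild type. In cdk12-as these were 7.69% and 5.13% of them, beside 2.74% and 3.08% of all tested genes, and both counts are small. The peroxisomal acyl-CoA oxidase gene acox-1 had 37.8 and 38.7 CPM, then 53.4 and 62.3 CPM (0.60 ± 0.10, adjusted p = 0.00741). Its groups did not overlap, and the neighbouring gene F08A8.2, now named acox-1.2, rose by 1.19. The falls were ech-1 (-1.62) and F08A8.4, now named acox-1.4 (-0.71). The rises numbered 0 without start replicate 1 and 1 without starved replicate 2, and the falls 0 without either starved library.

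Neuropeptide genes gave 11 rises and no fall among 82 tested, with a median of 0.38, and 76 of the 82 were positive. Nlp-11 had 31.3 and 33.7 CPM, then 44.4 and 45.5 CPM (0.47 ± 0.08, adjusted p = 0.00668). F02D8.5, now nlp-59, had 9.07 and 10.8 CPM, then 15.3 and 17.4 CPM (0.71 ± 0.13), and Y113G7A.15, now nlp-69, had 8.96 and 13.5 CPM, then 21.2 and 26.9 CPM (1.09 ± 0.21). All starved libraries were above the start libraries in these genes. In wild type 1 member rose, 2 fell and the median was 0.09. No member passed the test of the difference between strains. The rises numbered 0 without start replicate 1, 5 without starved replicate 1, 1 without starved replicate 2 and 0 with total count scaling, while the median stayed between 0.26 and 0.53 under those changes and the others tried.

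Among 27 neuron markers 3 rose (11.1%, beside 2.74% of all tested genes) and none fell. The proprotein convertase gene egl-3 had 536 and 711 CPM, then 848 and 1040 CPM (0.60 ± 0.14, adjusted p = 0.0323), and the carboxypeptidase E gene egl-21 had 367 and 457 CPM, then 580 and 614 CPM (0.54 ± 0.10, adjusted p = 0.0126). The dense core vesicle gene ida-1 had 396 and 445 CPM, then 592 and 653 CPM (0.57 ± 0.12, adjusted p = 0.0196). The groups did not overlap in any of them. Of the 27 markers 20 were positive and none was at 0 in the 4 libraries. Neuron markers summed to 2600 and 2934 CPM at the start and 3511 and 3751 CPM later in cdk12-as, and to 3178 and 3261, then 3780 and 3793 CPM in wild type, and their part in the neuropeptide rises was not tested. All 3 calls were lost without start replicate 1 and without starved replicate 2.

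Chemoreceptor genes, which are expressed mainly in sensory neurons, gave 22 rises and no fall among 551 tested of 1312, with a median of 0.24. The share that rose, 3.99%, was not far from the 2.74% of all tested genes. At an unadjusted p under 0.05, edgeR gave 87 higher and 15 lower members, beside 1558 higher and 1778 lower of all 15845 tested genes. Of the 551 members 351 were positive, and DESeq2 called 0 falls. Str-7 had 0.45 and 0.12 CPM, then 2.18 and 1.96 CPM (3.06 ± 0.43, adjusted p = 0.00259). K01C8.1, now srdh-1, had 17.9 and 25.3 CPM, then 43.1 and 52.4 CPM (1.14 ± 0.16). Both genes had higher values in each starved library than in either start library. Several of the called members were low, such as srw-87 with 0 and 0.079 CPM, then 0.38 and 0.48 CPM. Wild type had 17 rises and 2 falls in this family, and its median was -0.04. The rises numbered 2 without start replicate 1, 13 without start replicate 2 and 4 without either starved library, and 2 with total count scaling.

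**Figure D4:**
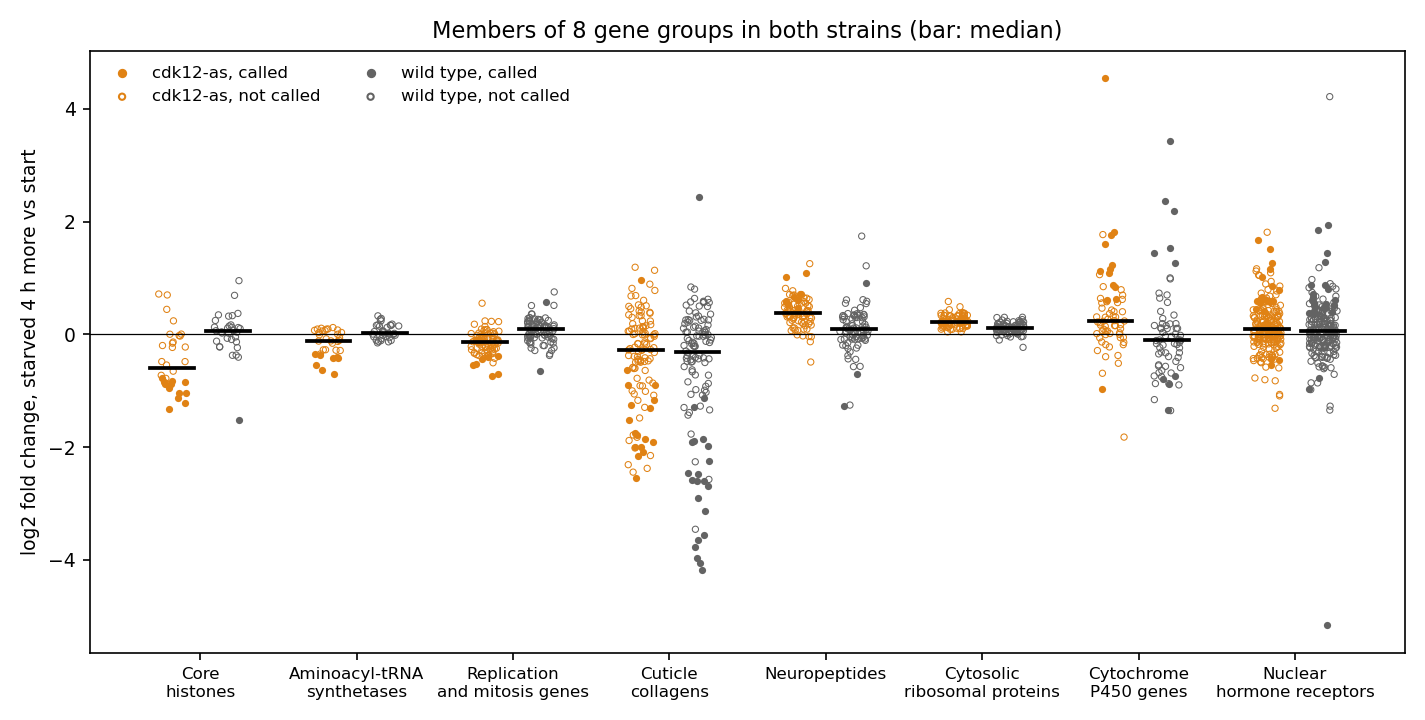
Log2 fold change of each tested member of 8 gene groups over 4 h of further starvation, in cdk12-as (orange) and wild type (grey), filled where called, with the median as a bar. Core histones had a median of -0.60 in cdk12-as (-0.99 and -0.22 by replicate) and 0.05 in wild type, neuropeptides 0.38 and 0.09, and collagens -0.28 and -0.31.

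Innate immunity genes were mixed. CUB-like and pathogen response genes, made mainly in the intestine, gave 6 falls and 2 rises among 18 tested. F35E12.5, now irg-5, had 71.6 and 51.9 CPM, then 22.2 and 28.7 CPM (-1.28 ± 0.22, adjusted p = 0.0077), and dod-19 had 180 and 128 CPM, then 62.7 and 65.4 CPM (-1.26 ± 0.22). Both starved libraries were lower than both start libraries. Irg-3 (0.88) and dod-18 (0.77) rose. C-type lectin and lysozyme genes gave 5 rises, led by clec-246 (2.78) and clec-1 (1.22), and 8 falls, led by clec-196 (-2.72) and clec-4 (-1.49), among 139 tested. These shares, 3.60% and 5.76%, were not far from the 2.74% and 3.08% of all tested genes. CUB-like falls numbered 0 without start replicate 1, 0 without starved replicate 1 and 1 without starved replicate 2, and lectin falls 0, 2 and 0.

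F-box genes, whose products choose proteins for ubiquitination, gave 8 falls and no rise among 201 tested, with a median of -0.23. The share that fell, 3.98%, was near the 3.08% of all tested genes. C10C5.2, now fbxc-58, had 42.6 and 30.0 CPM, then 18.6 and 17.8 CPM (-0.99 ± 0.18), and fbxa-37 had 41 and 33.3 CPM, then 19.6 and 23.7 CPM (-0.78 ± 0.14). Their starved libraries lay below their start libraries. At an unadjusted p under 0.05, edgeR gave 34 lower and 7 higher members, beside 1778 lower and 1558 higher of all 15845 tested genes. Of the 201 members 140 were negative, and DESeq2 called 2 rises. The falls numbered 0 without start replicate 1, 1 without starved replicate 1 and 1 without starved replicate 2.

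The groups of starvation genes below gave at most 1 call each over these 4 h. Of all tested genes 2.74% rose and 3.08% fell, so few calls could be expected of groups with 24 to 30 tested members. Of 24 tested genes activated by DAF-16, none was called, with a median of -0.04, 1 lower at an unadjusted p under 0.05 and 1 fall by DESeq2. Autophagy genes gave 1 fall among 27, in epg-2, which links protein aggregates to autophagy and had 127 and 85.5 CPM, then 60.3 and 53.1 CPM (-0.90 ± 0.22, adjusted p = 0.035). Of the 27 autophagy genes 21 were negative, and their median was -0.12. At an unadjusted p under 0.05 edgeR gave 8 of them lower and 0 higher, beside 1778 lower and 1558 higher of all 15845 tested genes. Genes of insulin receptor, TORC1 and AMPK signalling gave 1 fall among 27, in the AMPK gamma subunit gene aakg-4, which had 71.7 and 88.5 CPM, then 62 and 57 CPM (-0.43 ± 0.10). The starved libraries were lower in both genes. Among insulin-like peptide genes ins-4 rose from 0.93 and 0.42 CPM to 2.50 and 2.57 CPM (1.99 ± 0.43), the only call of 30. The epg-2 call was lost without start replicate 1 or either starved library, and those of aakg-4 and ins-4 without start replicate 2 or either starved library.

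The gene whose product is altered in this strain, cdk-12, had 35.6 and 39.9 CPM at the start and 37.2 and 47.9 CPM later (log2 fold change 0.17 ± 0.15, adjusted p = 0.579). Its groups overlapped, and the level of the message does not check the altered protein. Its cyclin partner gene ccnk-1 had a change of 0.07 ± 0.10, the CTD kinase gene cdk-9 one of -0.24 ± 0.13, and ama-1, which encodes the large subunit carrying the CTD, one of -0.15 ± 0.16. None of these 4 passed the test. Among 84 genes of RNA polymerase II, CTD kinases and Mediator, mdt-27 (-0.35), rpb-9 (-0.41) and rpb-6 (-0.26) fell and none rose. This is 3.57% of them, near the 3.08% of all tested genes that fell, and all 3 calls were lost without start replicate 1 or either starved library.

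Genes called in cdk12-as mostly moved the same way in wild type. Of the 434 rises, 406 (93.5%) had a positive change in wild type, with a median of 0.55, and 218 (50.2%) were also called there. Of the 488 falls, 434 (88.9%) had a negative change in wild type, with a median of -0.55, and 185 (37.9%) were called. Over all tested genes 48.4% were positive in wild type. Seen from wild type, which had 482 rises (3.04%) and 487 falls (3.07%), together 6.12% of the genes tested, the shared calls were 45.2% and 38%. Across all tested genes, which are not independent replicates, the 2 sets of changes had a Pearson correlation of 0.54 and a Spearman correlation of 0.45.

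The test of the difference between strains passed for 5 genes (0.0316% of those tested), all with a lower change in cdk12-as, and 1277 genes had an unadjusted p under 0.05. Dgat-2 rose by 0.88 in cdk12-as and by 2.45 in wild type, where it had 9.40 and 9.13 CPM at the start and 49.2 and 52 CPM later (difference -1.57 ± 0.15, adjusted p = 0.00283). The wild-type start libraries were below, and its starved libraries above, those of cdk12-as. Cyp-36A1 had 27.5 and 22.1 CPM, then 38.4 and 37.3 CPM in cdk12-as, and 7.80 and 9.0 CPM, then 43.4 and 43 CPM in wild type (difference -1.75 ± 0.19, adjusted p = 0.00464). Its cdk12-as start libraries were above those of wild type, and its starved libraries were below.

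The other 3 genes were outside the naming rule, which asks for a symbol of letters and a number, and are given because they complete the 5. Y37A1B.5, now semo-1, a methanethiol oxidase gene, had 37 and 38.3 CPM, then 41.3 and 42 CPM in cdk12-as, and 25.9 and 27.4 CPM, then 69.6 and 66.5 CPM in wild type. ZK550.6 had 46.6 and 46.5 CPM, then 41 and 45.8 CPM in cdk12-as, and 33.1 and 33.7 CPM, then 68.9 and 78.4 CPM in wild type. Both rose in wild type and were not called in cdk12-as. F54E2.1 fell from 49.8 and 38.4 CPM to 22 and 23.5 CPM in cdk12-as, and had 15.7 and 16.3 CPM, then 21.1 and 22.8 CPM in wild type. The 5 lower genes became 10 lower and 4 higher without cdk12-as start replicate 2. With none higher, there were 2 and 3 lower without cdk12-as starved replicates 1 and 2, 1 without wild-type start replicate 1, 3 without wild-type starved replicate 1 and 0 with total count scaling. DESeq2 called 26 genes with a higher change in cdk12-as and 66 with a lower one.

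**Figure D5:**
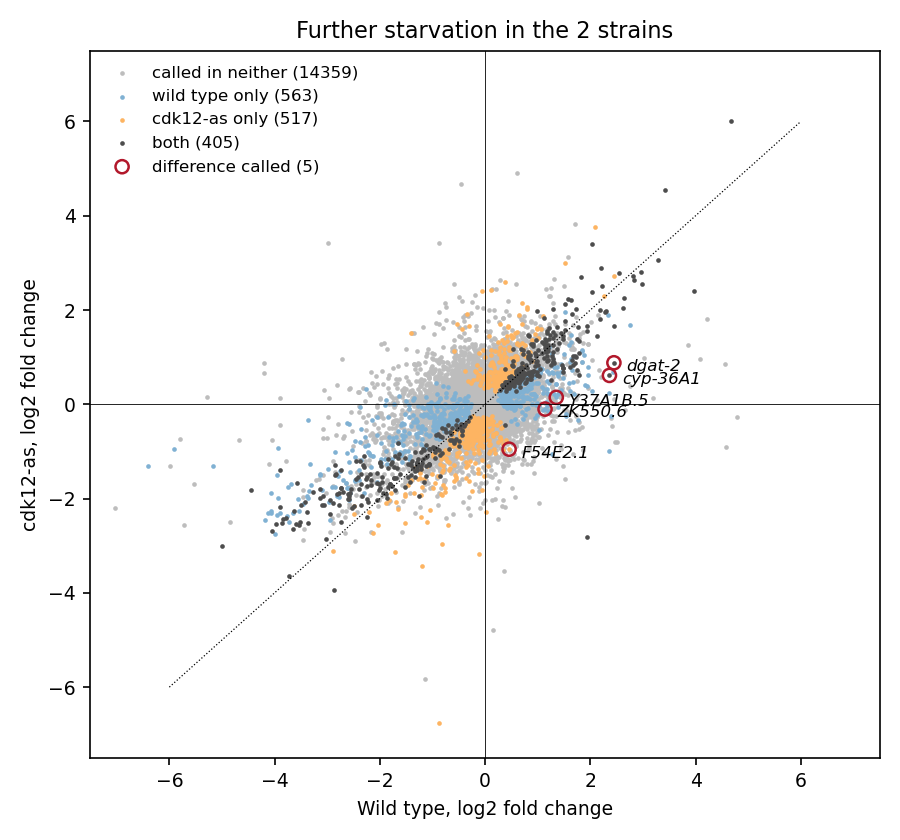
Log2 fold change over 4 h of further starvation in wild type (horizontal) and cdk12-as (vertical), 1 point per tested gene, coloured by the strain in which it was called. The 5 ringed genes passed the test of the difference and lie below the dotted line of equal change.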

How the data were processed

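Raw, whole-number read counts of 24654 genes in 16 libraries were used as deposited by the authors. The submitters' processing notes list Trimmomatic, HISAT2, featureCounts, DESeq2, deepTools 3.2 and the ce10 build and give none of them a role. How the gene counts were made (counter, strand setting, reads or pairs) is not given in the sources used here, so overlapping, antisense and near-identical genes are uncertain. Library sizes and tests leave out 5 special lines of the table that stand for no gene. Reads with no feature and ambiguous reads are given as percent of each deposited column. A second deposited table gave ce10 positions for 24236 genes, and its 32 columns of counts, whose codes match no sample label, were not used. Current names and biotypes (23886 genes) came from the Ensembl annotation, with no coordinate taken from it.

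edgeR 4.0.16 (R 4.3.3, limma 3.58.1) fitted a quasi-likelihood negative binomial model of 8 group means to all 16 libraries, with TMM scaling and filterByExpr (minimum count 10). This left 8 residual degrees of freedom beside a median of 4.17 prior ones. Tests were two-sided, adjusted by Benjamini-Hochberg over all 15845 genes and called under 0.05. SE is the size of the log2 fold change divided by the root of the F statistic, and levels are CPM scaled by TMM. Summed levels of a gene group cover its tested members alone. Between the replicates of a group, chi-square per degree of freedom was 124 (start) and 106 (starved), so no library was a copy of another. The fit was tested on simulated data with known changes.

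Genes were named by rule: the 12 largest rises and falls among those called, if their mean reached 5 CPM, their symbol was letters and a number, and the groups did not overlap; up to 3 called members of each of 49 gene lists; genes of the difference between strains; and ama-1, ccnk-1, cdk-9 and cdk-12. Members and lists were chosen with earlier results of these data known, and some lists were trimmed of wrongly matched symbols, 3 of them renamed, after counts had been seen. Alternatives were other scalings, filters, DESeq2 1.42.0, fewer libraries and a replicate block. Lists not described in the text had 2 calls or fewer, apart from heat shock, DNAJ and CCT genes with 3 falls (hsp-12.1, dnj-27 and dnj-19), ligand-gated channels with 3 rises and 2 falls, and pharynx markers with 3 falls (phat-1, phat-2 and phat-5).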

Additional observations from a re-analysis of the deposited data

Results flagged for a closer look

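The change over 4 h of further starvation differed between the strains, by the edgeR test of the difference itself, in 5 genes, each lower in cdk12-as than in wild type. The difference in log2 fold change, cdk12-as minus wild type, was -1.75 ± 0.19 in cyp-36A1 (adjusted p = 0.00464) and -1.57 ± 0.15 in dgat-2 (adjusted p = 0.00283). In ZK550.6 it was -1.24 ± 0.14 and in Y37A1B.5 it was -1.21 ± 0.14 (adjusted p = 0.00642 for each). In F54E2.1 it was -1.41 ± 0.18 (adjusted p = 0.0134). In all 5 genes both cdk12-as start libraries were above both wild-type start libraries. These start values enter the tested difference, so the order is partly what selected the genes. Its share over all tested genes was not counted.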

How the results depend on the processing

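For cdk12-as, total count scaling gave 54 rises and 229 falls and moved the median of all genes by -0.13, with 248 of the 922 calls shared, and rises made up 19.1% of its calls against 47.1%. Total counts without rRNA gene rows gave 341 rises and 589 falls, of which 36.7% were rises. With the 4 libraries alone edgeR called 111 rises and 86 falls, 185 of them among the 922. Leaving out each library in turn gave 78 to 431 rises and 38 to 568 falls, and in wild type 146 to 222 rises and 100 to 344 falls. Total count scaling gave 94 rises and 284 falls in wild type. DESeq2 called 506 rises and 715 falls in cdk12-as.

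The difference between strains had 0 genes higher and 5 lower in cdk12-as. The higher and lower counts were 0 and 0 with total count scaling, 4 and 5 without rRNA gene rows, 6 and 8 with no filter on low counts, and 26 and 66 with DESeq2. Leaving out each library gave 0 to 4 higher and 1 to 10 lower.

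Replicates that share a number are not stated to share a culture, and their deviations from the group means correlated at 0.42 in cdk12-as and 0.28 in wild type, over 1 pair of conditions each. The replicate block gave 862 rises and 1022 falls in cdk12-as, 932 and 899 in wild type, and 20 higher and 39 lower for the difference. A block by culture, strain and number together, gave 912 and 1035, 949 and 895, and 17 and 36. Neither block changed the call of any of the 106 values of named genes.

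Direction turned in 3 genes that were not called: cdk-12 was at -0.020 without starved replicate 2 (adjusted p = 0.978; -0.020 to 0.34 over the 4 libraries left out), ccnk-1 at -0.047 with total count scaling (0.972) and ama-1 at 0.043 without starved replicate 1 (0.929; -0.38 to 0.043 over the 4). Under the stricter filter some groups, sperm markers among them, had no member left. The cause of these shifts was not tested. With 2 libraries per group and 22383445 to 42118911 gene counts each, small changes of low genes were not detectable.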

Other observations

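Some strong changes lie outside the groups and the naming rule, and were chosen after their values were seen. The noncoding RNA gene tts-2 had 156 and 104.3 CPM at the start and 45.7 and 47.8 CPM after further starvation in cdk12-as (log2 fold change -1.48 ± 0.19, edgeR adjusted p = 0.00148), and fell by 1.61 in wild type. The flavin-containing monooxygenase gene fmo-2 had 130 and 171 CPM, then 76.3 and 48.2 CPM (-1.27 ± 0.20, adjusted p = 0.0052). Both starved libraries were below both start libraries in these genes.

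Among rises, the methionine synthase gene metr-1 had 151 and 196 CPM, then 312 and 336 CPM (0.90 ± 0.11, adjusted p = 0.00147). The dicarboxylate transporter gene nac-3 had 23.3 and 24.8 CPM, then 51 and 55.6 CPM (1.15 ± 0.08, adjusted p = 5.43e-05). The oxygen-sensing prolyl hydroxylase gene egl-9 had 39.4 and 37.7 CPM, then 64.2 and 79.2 CPM (0.89 ± 0.13, adjusted p = 0.00268). All 5 of these genes were called whichever of the 4 libraries was left out, and all 5 changed the same way in wild type.

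There were 2 genes called in both strains in opposite directions, nhr-62 and Y71G12B.30. Nhr-62 had 39.1 and 33.4 CPM, then 25.9 and 27.4 CPM in cdk12-as, and 14.3 and 13.8 CPM, then 18 and 18.5 CPM in wild type. The test of the difference gave an adjusted p of 0.069. Y71G12B.30 was low, with 0.30 and 0.26 CPM, then 0 and 0.080 CPM in cdk12-as, and 0.096 and 0.13 CPM, then 0.39 and 0.52 CPM in wild type (adjusted p = 0.121 for the difference).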
